A study of Mus musculus with 4 samples.

Results

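The chemokines of the CXC and CX3C families were followed in mouse brain after permanent middle cerebral artery occlusion (PMCAO), a stroke model in which a filament blocks the artery that feeds much of a hemisphere. The members were Cxcl1, Cxcl2, Cxcl3, Cxcl5, Cxcl9, Cxcl10, Cxcl12, Cxcl14, Cxcl16 and Cx3cl1, chosen by gene symbol, current or older. All 10 were on the array, as 13 of its 41174 probes, among 27670 gene names. Of the 10, 9 were tested with 19127 genes in all, and Cxcl9 was not.

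Each array compared 2 RNA groups of male C57BL/6J mice aged 8 to 12 weeks. In the PMCAO group a nylon filament was passed through the right carotid artery, and in the sham group the artery was exposed only. Both groups were under isoflurane and received saline into the cerebral ventricle, so no group lacked surgery or injection. Groups held 3 mice, and brains were taken 6 h or 24 h after the injection. Per the study's design text the arrays carried RNA of the left hemisphere, contralateral to the occlusion, while the labels say only brain. Each time had 2 two-colour arrays: sample 1 carried PMCAO RNA in Cy5 and sample 2 carried it in Cy3. The labels leave unsaid whether both samples came from separate RNA and how 3 mice were combined. The p-values therefore reflect array-to-array spread alone, possibly technical, with n = 2 arrays at each time throughout.

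Chemokines are small secreted proteins that guide leukocytes through G protein-coupled receptors, and are named for the spacing of their first cysteines. CXC ligands with a glutamate-leucine-arginine (ELR) motif attract neutrophils through Cxcr2, whereas Cxcl9 and Cxcl10 are induced by interferons and attract activated T cells through Cxcr3. Cxcl12 and Cxcl14 are made in healthy tissue. Cxcl16 and Cx3cl1 are anchored in the membrane until a protease sheds them, and Cx3cl1 of neurons signals to Cx3cr1 on microglia.

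The spots well above background were 66.3% to 73.7% of an array in the PMCAO channel and 67.3% to 73.6% in the sham channel. Across genes, the ratios of the 2 arrays of a time correlated at 0.58 at 6 h and 0.67 at 24 h, and those of arrays with the same sample number at 0.61 and 0.63. The genes are not independent replicates. Of 10 neuron markers all 10 were well above background in each RNA group, as were the 8 astrocyte, 10 microglia and 6 oligodendrocyte markers.

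At 24 h, 5 of the 9 tested chemokines were higher in PMCAO than in sham (Cxcl1, Cxcl2, Cxcl3, Cxcl10 and Cxcl16) and 2 were lower (Cxcl12 and Cx3cl1). Cxcl5 and Cxcl14 did not pass the test. At 6 h, 1 was higher, Cxcl1, and 0 were lower. A gene passed when its Benjamini-Hochberg adjusted p, over all genes tested with limma, was under 0.05. Of all genes, 7.84% passed as higher and 4.52% as lower at 24 h, and 0.816% as higher and 0.0366% as lower at 6 h. At an unadjusted p under 0.05 the 6 h counts were 3 members higher and 1 lower in limma. Of all 19127 genes, 1179 were higher and 494 lower at that threshold at 6 h, and 2967 and 2539 at 24 h. With each time fitted alone, Cxcl2, Cxcl10 and Cxcl12 also passed at 6 h, with the same ratios. Over all genes that fit gave 940 higher and 354 lower at 6 h, against 156 and 7 in the main fit. The median log2 ratio of the 9 tested members was 0.10 at 6 h and 0.86 at 24 h, against -0.005 and 0.0008 over all genes. Cxcl2 and Cxcl3 entered the test only through the PMCAO channel, where they are high, so the counts and medians describe the members tested and not all 10. Of the 6 members well above background in every channel, 2 were higher and 2 lower at 24 h. With that filter 1276 of 17288 genes were higher and 746 lower at 24 h.

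**Figure D1:**
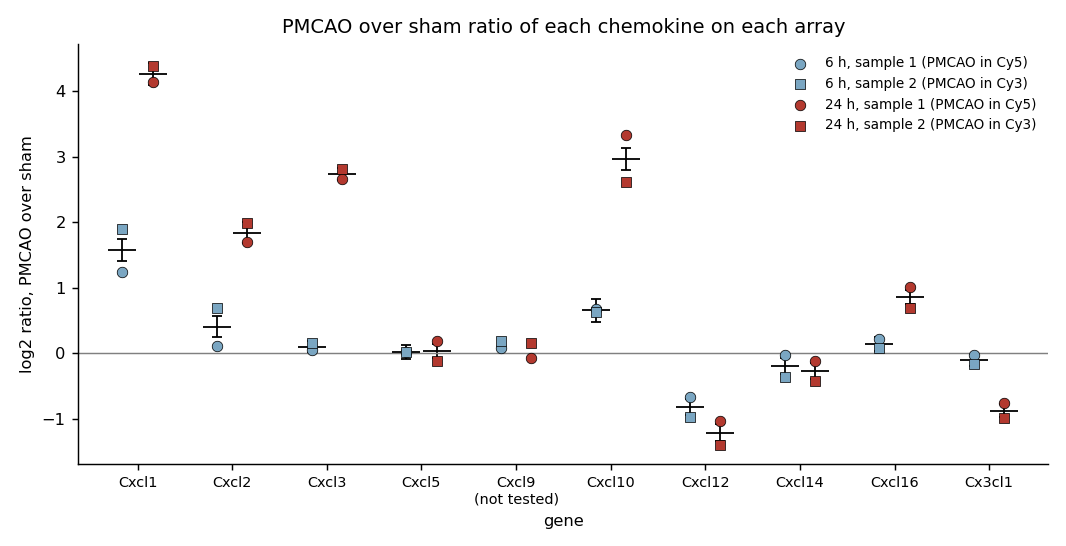
Log2 ratio of PMCAO over sham for the probe that stands for each chemokine, on each of the 4 arrays. Blue is 6 h and red 24 h, circles are sample 1 and squares sample 2, and black bars give the mean with the model's standard error. Cxcl1 reached 4.14 and 4.38 at 24 h, Cxcl12 lay below 0 on all 4 arrays, and Cxcl5 stayed between -0.11 and 0.19.

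The ELR-positive ligands Cxcl1, Cxcl2 and Cxcl3, which attract neutrophils, were higher at 24 h. All 3 lie on chromosome 5, with probes at chr5:90882059-90882118, chr5:90894748-90894807 and chr5:90758177-90758236 (mm7, plus strand). The bases before their starts are shown because these genes rose together at 24 h. They come from RefSeq, build GRCm38.p6, a different build from that of the probes, and run from position -100 to -11, where -1 is the last base before the start. The stretches are chr5:90891145-90891234 for Cxcl1, chr5:90903799-90903888 for Cxcl2 and chr5:90786001-90786090 for Cxcl3, all on the plus strand. Capitals mark matches, on either strand and overlapping where both strands match, to TATAAA or to a loose NF-kB-like pattern (GGG, any 5 bases, CC):
Cxcl1: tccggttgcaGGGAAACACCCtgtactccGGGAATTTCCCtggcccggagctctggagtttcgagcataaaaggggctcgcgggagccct
Cxcl2: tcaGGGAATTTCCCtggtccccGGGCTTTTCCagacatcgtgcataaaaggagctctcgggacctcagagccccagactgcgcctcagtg
Cxcl3: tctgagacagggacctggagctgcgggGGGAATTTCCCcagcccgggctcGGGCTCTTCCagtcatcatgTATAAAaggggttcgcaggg
The same stretch GGGAATTTCC lies at -71 in Cxcl1, -97 in Cxcl2 and -73 in Cxcl3. It was singled out after the windows were read. Over 250 bases before the start it occurs, on either strand, in 28 of 32851 windows (0.085%), whereas the loose pattern occurs in 45.8% and TATAAA in 12.4%. Each is a match of letters, not a measured binding site.

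Cxcl1 encodes a main neutrophil attractant of rodents. Its normalised log2 signal was 7.61 and 6.70 in sham at 6 h and 8.85 and 8.60 in PMCAO, and at 24 h it was 6.83 and 6.33 in sham and 10.97 and 10.71 in PMCAO. All 4 PMCAO values lay above all 4 sham values. The log2 ratios were 1.24 and 1.90 at 6 h, a mean of 1.57 ± 0.17 (model SE, n = 2 arrays) or 2.97-fold, with limma's adjusted p = 0.0264. At 24 h they were 4.14 and 4.38, a mean of 4.26 ± 0.17 or a fitted 19.2-fold (limma adjusted p = 0.000224). The sham signal was well above background on both arrays at 6 h but on only 1 of 2 at 24 h, where the fold rests partly on a background signal. With the scanner software's processed signals, which subtract background without an offset, the log2 ratio was 3.73 at 6 h and 6.12 at 24 h.

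Cxcl2, a close relative that uses the same receptor, had sham log2 signals of 6.73 and 6.20 on the 6 h arrays and 6.63 and 5.96 on the 24 h arrays, not well above background on any array. In PMCAO it was 6.84 and 6.89 at 6 h and 8.33 and 7.95 at 24 h, well above background on all. It was at least 3.48-fold higher at 24 h (log2 ratios 1.70 and 1.98, limma adjusted p = 0.00258). The bound took, for each sham array, the higher of the probe's own signal and the lowest signal among probes well above background, and it was 2.63 with that floor at their 5th percentile. At 6 h the lower floor left the fitted 1.32-fold unchanged, so that value is no minimum increase, and the higher floor gave 1.00-fold. The 6 h ratios of 0.11 and 0.70 did not pass (limma adjusted p = 0.559). Processed signals gave log2 ratios of 3.04 at 6 h (limma adjusted p = 0.0353) and 5.53 at 24 h, against a sham signal not well above background, so these are no measured folds.

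Cxcl3, which also binds that receptor, carries the older name Gm1960 on the array. It was not well above background in either group at 6 h, so no fold is given there. In sham at 24 h its log2 signal was 6.39 and 5.84, again not well above background, against 9.04 and 8.66 in PMCAO. It was thus at least 6.07-fold higher at 24 h, or 4.31-fold with the higher floor (log2 ratios 2.66 and 2.82, limma adjusted p = 0.000202). Its signal in PMCAO at 24 h stood apart from the other 6 values, which ran from 5.84 to 6.49. Processed signals gave a log2 ratio of 6.88 at 24 h, with the same limit.

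Cxcl5, the remaining ELR-positive ligand here, did not follow. Its probe at chr5:90732453-90732512 (mm7) was well above background in every group, with log2 signals between 7.08 and 7.31 over the 8 channels. The ratios were 0.03 and 0.01 at 6 h and 0.19 and -0.11 at 24 h, so the 24 h arrays differed in sign around a mean of 0.04 ± 0.10 (limma adjusted p = 0.856).

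**Figure D2:**
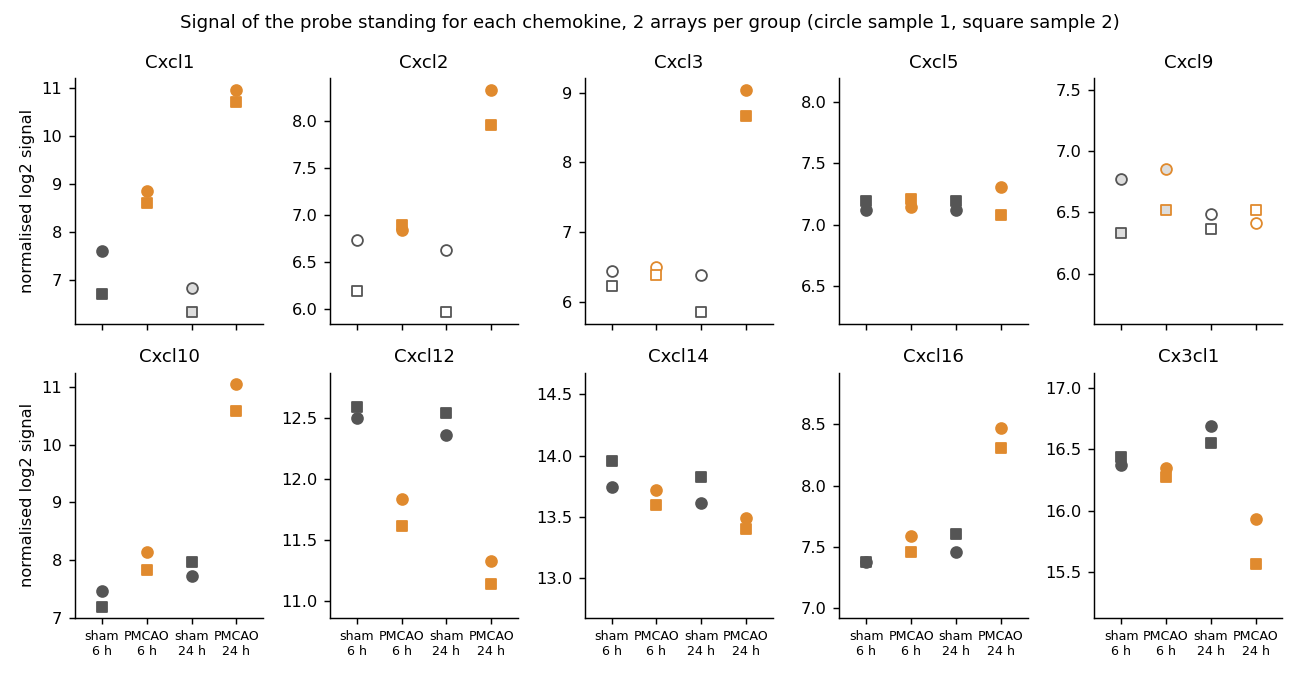
Normalised log2 signal of the probe standing for each chemokine in sham (grey) and PMCAO (orange) RNA, with circles for sample 1 and squares for sample 2. Symbols are filled where both arrays of the group were well above background, shaded where 1 was and open where none was, and each panel has its own axis. Cxcl1, Cxcl2, Cxcl3, Cxcl10 and Cxcl16 stand higher in PMCAO at 24 h, Cxcl12 and Cx3cl1 stand lower, and both Cxcl9 groups at 24 h are open.

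Of the interferon-induced pair, Cxcl10 rose at 24 h and Cxcl9 was too dim to test. Cxcl10 attracts activated T cells and is made by many cells under interferon or NF-kB signalling. Its log2 signal in sham was 7.46 and 7.19 at 6 h and 7.73 and 7.97 at 24 h. In PMCAO it was 8.14 and 7.83 at 6 h and 11.06 and 10.58 at 24 h, so the groups did not overlap at either time. The log2 ratios of 0.67 and 0.64 at 6 h gave 0.66 ± 0.17, which did not pass over all genes (limma adjusted p = 0.274). Those of 3.33 and 2.61 at 24 h gave 2.97 ± 0.17, or 7.84-fold (limma adjusted p = 0.000707). Processed signals gave 1.72 at 6 h, with an adjusted p of 0.112 in limma.

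The window before Cxcl10 is shown because both kinds of pattern occur in it. It covers positions -220 to -91, at chr5:92348980-92349109 (GRCm38.p6, minus strand, printed 5′ to 3′ along the gene, from RefSeq). Capitals mark, in order, a match to GAAA, any 2 bases and GAAA, a pattern like an interferon response element, and then matches to the NF-kB-like pattern:
Cxcl10: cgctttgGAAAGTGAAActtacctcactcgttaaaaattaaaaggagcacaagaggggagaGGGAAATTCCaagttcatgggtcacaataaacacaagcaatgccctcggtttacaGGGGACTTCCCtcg
The interferon element-like pattern occurs in 2.98% of all windows of 250 bases, on either strand, and in 2 of the 8 members with a window, Cxcl10 and Cxcl14. The stretch GGGAAATTCC at -159 also occurs, on the reverse strand, in Cxcl1, Cxcl2 and Cxcl3, where it overlaps the stretch those 3 share. On either strand it occurs in 32 windows (0.097%), and these 4 members are among them. Cxcl5 and Cxcl16 were not matched in the table.

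Cxcl9 (probe at chr5:92310412-92310471, mm7) was well above background on 1 of 2 arrays in each group at 6 h and on 0 of 2 at 24 h. Its log2 signals ran from 6.33 to 6.86 and its ratios were 0.08, 0.19, -0.07 and 0.16. These ratios were not tested, and no fold is given. Its window holds a match to the NF-kB-like pattern at -130 and TATAAA at -195.

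Cxcl12, the homeostatic ligand of Cxcr4 made by vessels, meninges and some neurons, fell at 24 h. Its brighter probe (chr6:117207552-117207611, mm7, transcript NM_013655) had sham log2 signals of 12.50 and 12.59 at 6 h, then 12.36 and 12.54 at 24 h. In PMCAO they were 11.83 and 11.62 at 6 h and 11.33 and 11.15 at 24 h, each below all sham values. The log2 ratios were -0.66 and -0.97 at 6 h (mean -0.82 ± 0.13, limma adjusted p = 0.0768) and -1.03 and -1.39 at 24 h (mean -1.21 ± 0.13, 2.31-fold lower, limma adjusted p = 0.00502). In bulk tissue, fewer cells of a type and less RNA per cell cannot be told apart.

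The other Cxcl12 probe lies 6753 bases away, at chr6:117200799-117200858, and matches transcript NM_021704. It was dimmer, with log2 signals of 8.63 to 9.33. Its log2 ratios were 0.08 and 0.21 at 6 h and -0.56 and -0.57 at 24 h. The 24 h mean of -0.56 ± 0.08 passed when every probe was tested on its own (limma adjusted p = 0.0169). The log2 ratio of the brighter probe minus that of the dimmer one was -0.74 and -1.18 at 6 h and -0.47 and -0.82 on the 24 h arrays. The probes thus had ratios of opposite sign at 6 h and of the same sign at 24 h, and a difference between transcripts was not tested.

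The window before Cxcl12 is also shown, from position -100 to -11, at chr6:117168435-117168524 (GRCm38.p6, plus strand, RefSeq). It holds a match to the NF-kB-like pattern as well, and a link between such letters and the ratios was not tested. Capitals mark its only match, on the reverse strand:
Cxcl12: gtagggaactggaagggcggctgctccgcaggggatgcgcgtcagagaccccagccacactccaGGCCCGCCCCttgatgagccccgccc
Neither of the 2 stretches named for Cxcl1, Cxcl2, Cxcl3 and Cxcl10 occurs within 250 bases before its start, which says only that those letters are not there.

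Cxcl14, a ligand of neurons and epithelia with a receptor still debated, did not pass at either time. Its log2 signals (probe at chr13:55377968-55378027, mm7, minus strand) ran from 13.61 to 13.95 in sham and from 13.40 to 13.72 in PMCAO. Its log2 ratios were negative on all 4 arrays, at -0.02 and -0.36 at 6 h and -0.12 and -0.43 at 24 h. The 24 h mean was -0.27 ± 0.13 (limma adjusted p = 0.227), and it passed with the sample number as a block (limma adjusted p = 0.00881). Under that block 3683 of 19127 genes passed as lower at 24 h, against 864 without it.

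The membrane-bound ligands moved in opposite directions at 24 h. Cxcl16, the ligand of Cxcr6 that also binds oxidised lipoprotein, rose. Its brighter probe (chr11:70535852-70535911, mm7) had sham log2 signals of 7.38 on both 6 h arrays and of 7.46 and 7.61 on the 24 h arrays, against 7.59 and 7.46 and then 8.47 and 8.31 in PMCAO. The ratios were 0.21 and 0.09 at 6 h and 1.01 and 0.70 at 24 h, giving 0.86 ± 0.11 or 1.81-fold at 24 h (limma adjusted p = 0.00823). Its other probe gave 0.07 and 0.23 at 6 h and 1.01 and 1.32 at 24 h, a mean of 1.16 ± 0.11 at 24 h in the fit of all probes (limma adjusted p = 0.00411). That probe is annotated from 70537593 to 70540334, a span of 2742 bases for 1 oligonucleotide.

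Cx3cl1, or fractalkine, fell at 24 h. Its brighter probe (chr8:93371329-93371388, mm7) had sham log2 signals of 16.38 and 16.44 at 6 h, then 16.69 and 16.55 at 24 h. In PMCAO they were 16.35 and 16.27 at 6 h and 15.94 and 15.56 at 24 h, the last pair below all other values. The log2 ratios were -0.03 and -0.17 at 6 h and -0.76 and -0.99 at 24 h, giving -0.87 ± 0.10 or 1.83-fold lower at 24 h (limma adjusted p = 0.00584). The dimmer probe, 9443 bases away, had ratios of -0.69 and -0.006 at 24 h and did not pass in the fit of all probes (mean -0.35 ± 0.17, limma adjusted p = 0.254). The call for Cx3cl1 therefore rests on 1 of its 2 probes.

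**Figure D3:**
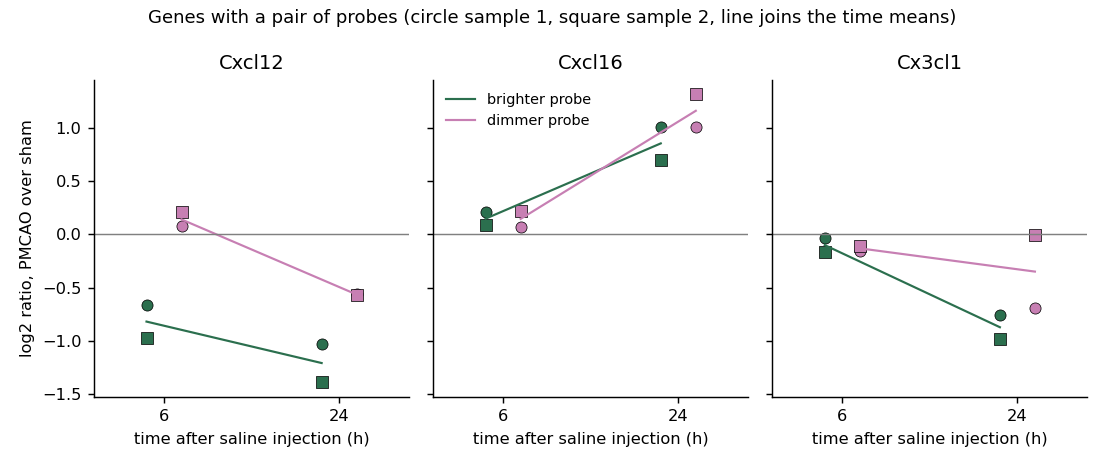
Log2 ratio of PMCAO over sham at 6 h and 24 h for both probes of Cxcl12, Cxcl16 and Cx3cl1, with circles for sample 1, squares for sample 2 and lines joining the means of a probe. Both probes of Cxcl16 rise to 0.86 and 1.16, whereas the probes of Cxcl12 differ at 6 h (-0.82 and 0.14) and those of Cx3cl1 differ at 24 h on sample 2 (-0.99 and -0.006).

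The response differed between the times for 3 members when the difference itself was tested. The log2 ratio at 24 h minus that at 6 h was 2.69 ± 0.24 for Cxcl1 (limma adjusted p = 0.0138), 2.64 ± 0.13 for Cxcl3 (limma adjusted p = 0.00371) and 2.31 ± 0.24 for Cxcl10 (limma adjusted p = 0.0196). These were 3 of 9 members higher and 0 lower, against 1.29% and 0.298% of all genes. At an unadjusted p under 0.05 the counts were 5 higher and 1 lower in limma, against 1468 and 1246 of all 19127 genes. The 24 h sham signal of Cxcl1 was well above background on only 1 of 2 arrays. The 6 h ratio of Cxcl3 came from signals not well above background in either group. Cxcl2 had a difference of 1.44 ± 0.23 (limma adjusted p = 0.0541), Cx3cl1 one of -0.77 ± 0.14 (limma adjusted p = 0.0734) and Cxcl16 one of 0.71 ± 0.15 (limma adjusted p = 0.107). Cxcl12, whose brighter probe was already at -0.82 at 6 h, had a difference of -0.39 ± 0.18 on that probe (limma adjusted p = 0.43). With processed signals only Cxcl3 of the 3 passed, with a difference of 6.70 that has the same limit. Cxcl1 was then at 2.40 and Cxcl10 at 1.60.

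In sham alone, 24 h against 6 h, 0 of 9 members passed in either direction in limma's separate-channel model, and unadjusted p-values under 0.05 were found for 1 higher and 0 lower. Of all 19117 genes in that model 2.6% passed as higher and 1.67% as lower. At the unadjusted threshold 2471 of them were higher and 1760 lower. Cxcl10 had the nearest value, 0.52 ± 0.19 (limma adjusted p = 0.154). Cxcl1 was at -0.58 ± 0.34 (limma adjusted p = 0.356), beside its ratio against sham that was larger at 24 h.

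These calls depended on how arrays were normalised. With median centring in place of loess, the adjusted p of Cxcl1 at 24 h was 0.0137 and no other member passed at either time, while all 7 members called at 24 h kept their direction, with log2 ratios from -1.37 to 4.22. Under that centring 13 genes in all were higher at 24 h and 0 lower in limma.

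Of the receptors of these ligands, 2 of 6 tested were higher at 24 h and 0 lower, against 7.84% and 4.52% of all genes. At 6 h, 0 were called in limma (unadjusted p under 0.05 for 1 higher and 1 lower). The median of the 6 was 0.005 at 6 h and 0.25 at 24 h. Cxcr2, the neutrophil receptor of the ELR-positive ligands, was not well above background in sham on any array. Cxcr2 therefore entered the test only through the PMCAO channel, where it is high. It had log2 ratios of 1.30 and 1.42 at 24 h and was at least 2.57-fold higher (limma adjusted p = 0.00103), and its difference between the times was 1.19 ± 0.13 (limma adjusted p = 0.021). The bound of 2.57 equals its fitted fold. For Cxcr2, and for Mmp8 and Il6 below, only the lower floor described for Cxcl2 was used, and a higher floor could give smaller bounds. Ackr3, a scavenger of Cxcl12, was at 0.93 and 0.66 at 24 h (mean 0.79 ± 0.10, limma adjusted p = 0.00796). Cxcr4, the signalling receptor of Cxcl12, was at 0.15 ± 0.08 (limma adjusted p = 0.315). Cxcr3, the receptor of Cxcl9 and Cxcl10, was at -0.18 ± 0.09 (limma adjusted p = 0.243), and Ackr1, a scavenger on red cells and venules, at 0.35 ± 0.11 (limma adjusted p = 0.0982). Cx3cr1, the microglial receptor of Cx3cl1, was at -0.42 and -0.67 at 6 h (mean -0.55 ± 0.10, limma adjusted p = 0.107) and at -0.15 ± 0.10 at 24 h (limma adjusted p = 0.381). Cxcr1, Cxcr5 and Cxcr6 did not reach the signal needed for the test.

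Among other CXC ligands, the 2 tested of 6 were both higher at 24 h. Ppbp, the precursor of a platelet neutrophil attractant, had log2 ratios of 2.04 and 1.97 at 24 h (mean 2.01 ± 0.09, limma adjusted p = 0.000287). Pf4, platelet factor 4, had 1.74 and 1.17 (mean 1.45 ± 0.16, limma adjusted p = 0.00591). Neither passed at 6 h, where Ppbp was at 0.25 and Pf4 at 0.90. Cxcl11, Cxcl13, Cxcl15 and Cxcl17 were not tested.

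Of 7 tested proteases that trim or shed chemokines, 3 were higher at 24 h and 0 lower, against 7.84% and 4.52% of all genes. The median of the 7 was 0.16. Mmp8, a neutrophil collagenase, was not well above background in sham and was at least 7.35-fold higher (limma adjusted p = 0.000482), and Mmp9, a gelatinase, was at 0.94 ± 0.08 (limma adjusted p = 0.00237). The third was Cpm, a carboxypeptidase, at 0.83 ± 0.09. Adam10 and Adam17, the sheddases of Cx3cl1 and Cxcl16, were at 0.16 ± 0.09 and 0.15 ± 0.09 and did not pass (limma adjusted p = 0.328 and 0.337). At 6 h, 0 of the 7 passed in limma, and 2 were higher at an unadjusted p under 0.05.

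Genes that induce these chemokines through NF-kB, or feed back on it, had 15 of 17 tested members higher at 24 h and 0 lower, against 7.84% and 4.52% of all genes, with a median log2 ratio of 1.13. Of the 15, Il6, Csf3, Il1a and Tnf entered the test only through the PMCAO channel, where they are high. At 6 h, 2 were higher, Nfkbia and Nfkbiz, and 0 lower, with a median of 0.38. The smallest p-values at 24 h belonged to the cytokines Il1b, at 2.88 ± 0.09 (limma adjusted p = 0.000189), and Il6, at least 8.38-fold higher (limma adjusted p = 0.000202). The list on interferon signalling had 3 of 13 tested members higher at 24 h and 0 lower, with a median of 0.36. Its members with the smallest p were Irf1, at 0.85 ± 0.08 (limma adjusted p = 0.00403), and Stat2, at 0.47 ± 0.08 (limma adjusted p = 0.0207). Ifng and Ifnb1, the interferon genes of that list, were not tested. At 6 h, 0 of 13 passed in limma (unadjusted p under 0.05 for 0 higher and 1 lower).

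**Figure D4:**
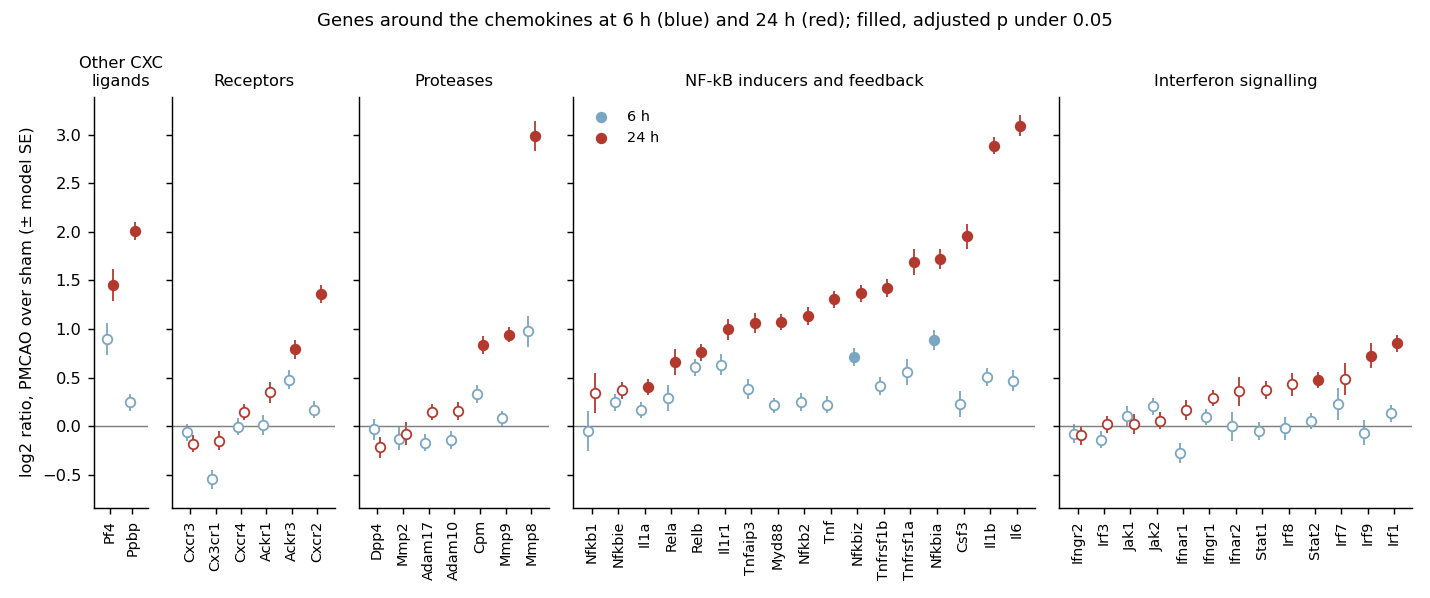
Log2 ratio of PMCAO over sham, with the model's standard error, for tested genes of 5 lists around the chemokines, at 6 h (blue) and 24 h (red). Filled points passed the test over all genes. At 24 h 15 of 17 NF-kB genes are filled, 3 of 13 interferon signalling genes, 3 of 7 proteases, 2 of 6 receptors and both other CXC ligands.

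Some markers of neutrophils, macrophages and monocytes were higher in PMCAO at 24 h. Neutrophil markers had 6 of 9 tested members higher at 24 h, against 7.84% of all genes. At 6 h, 3 were higher, S100a8, S100a9 and Retnlg, against 0.816% of all genes. Mpo and Ltf, at 0.13 ± 0.08 and 0.17 ± 0.09 at 24 h, did not pass. At 24 h S100a9 was at 5.84 ± 0.10 and S100a8 at 5.27 ± 0.10 (limma adjusted p = 8.76e-05 for both). The mean log2 signal over that list was 7.26 and 7.46 in sham and 8.04 on both arrays in PMCAO at 6 h, against 6.98 to 7.13 in sham and 8.93 to 8.97 in PMCAO at 24 h. Mmp8 is also counted with the proteases. Mmp8, Ngp and, among the next list, Arg1 entered the test only through PMCAO. Macrophage and monocyte markers had 5 of 8 higher at 24 h, led by Chil3 at 4.37 ± 0.13 and Arg1 at 2.13 ± 0.11. Their mean log2 signal at 24 h was 8.36 to 8.42 in sham and 9.55 to 9.59 in PMCAO. Ms4a7, at -0.05 ± 0.10, was among those that did not pass. At 6 h, 0 of the 8 passed, with a median of 0.09. The part of these cells in the chemokine ratios was not tested.

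Microglia markers had 5 of 10 lower and 0 higher at 24 h, with Siglech at -1.01 ± 0.09 and Gpr34 at -1.37 ± 0.13, and a mean log2 signal of 10.43 to 10.52 in sham and 9.90 to 9.91 in PMCAO. Neuron markers, the main source of Cx3cl1 in brain, had 0 of 10 past limma at 24 h (unadjusted p under 0.05 for 0 higher and 1 lower), with Nefm at -0.32 ± 0.12 and Stmn2 at -0.18 ± 0.08. Their mean log2 signal was 14.04 to 14.23 in sham and 13.94 to 14.09 in PMCAO. Endothelial markers had 3 of 9 higher and 1 lower, with Cdh5 at 1.45 ± 0.14 and Pecam1 at 0.93 ± 0.09. The lower one was Slco1a4, at -0.62 ± 0.10 (limma adjusted p = 0.0167), which was also lower at 6 h, at -1.03 ± 0.10 (limma adjusted p = 0.017). At an unadjusted p under 0.05, 4 of the 9 endothelial markers were higher and 3 lower at 24 h in limma. The lower ones included Tek, at -0.52 ± 0.12, and Kdr, at -0.33 ± 0.12. At 6 h, 5 of the 9 were lower and 1 higher at that threshold. Pericyte and meningeal markers had 3 of 10 higher at 24 h, with Dcn at 1.13 ± 0.08 and Kcnj8 at 0.96 ± 0.09. The list medians were -0.31 at 6 h and 0.14 at 24 h for endothelial markers, and 0.01 and 0.26 for pericyte and meningeal markers. Cxcl12 was at -0.82 and -1.21 on its brighter probe and at 0.14 and -0.56 on its dimmer one. The part of neurons, microglia and vessel cells in the ratios of Cx3cl1 and Cxcl12 was not tested. Astrocyte markers had 3 of 8 higher and a median of 0.05, with Gfap at 1.25 ± 0.12 and Aldh1l1 at 0.54 ± 0.09, and Slc1a2 at -0.41 ± 0.22 (limma adjusted p = 0.298).

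Of 9 markers of T and NK cells, which carry Cxcr3 and Cxcr6, only 4 reached the signal needed for the test. At 24 h, 0 of these 4 passed limma (0 at an unadjusted p under 0.05 as well), with Cd3e at -0.10 ± 0.08 and Nkg7 at -0.08 ± 0.09. Oligodendrocyte markers had 0 of 6 past limma at 24 h and choroid plexus markers 0 of 5 (1 higher in each at an unadjusted p under 0.05). Mobp and Mbp were at 0.43 ± 0.15 and 0.46 ± 0.25, and Clic6 and Folr1 at 0.32 ± 0.11 and 0.16 ± 0.09. Of 2 red blood cell markers, Hba-a1 was higher at 0.52 ± 0.08 (limma adjusted p = 0.0187), and Alas2 was at 0.38 ± 0.09 (limma adjusted p = 0.0532).

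The genes nearest to a member by Euclidean distance between log2 ratios over the 4 arrays are given as a description of likeness alone. Nearest to Cxcl1 were Retnlg (distance 0.33), Ctla2a (0.86) and Ccl3 (0.87). Nearest to Cxcl10 were Spp1 (0.35), Ccl9 (0.50) and Il1b (0.56), and nearest to Cxcl12 were Gpr34 (0.26), Mycn (0.41) and Ido1 (0.49). Retnlg had log2 ratios of 1.37, 2.18, 4.24 and 4.46, in the order 6 h sample 1, sample 2, 24 h sample 1 and sample 2. Gpr34 had -0.57, -0.90, -1.21 and -1.53 in the same order.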

How the data were processed

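The authors deposited the scanner software's output (Agilent Feature Extraction 9.5.3.1): intensity per spot (mean, local background and processed signals) and the Cy5 over Cy3 log10 ratio. Per the file headers, probe coordinates are mm7. A table the authors deposited for the whole series holds a score per probe, equal in size to processed Cy5 over Cy3 for 100.0% of probes within rounding, with column medians of -0.96, 0.96, -0.91 and 0.95; the meaning of its sign and any centring stay unknown.

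Normexp (offset 50) on mean signals and loess within arrays were run in limma 3.58.1 (R 4.3.3), control spots having weight 0. Outlier-flagged spots (112 to 142 per array) were dropped. Ratios were turned to PMCAO over sham, and the brightest probe stood for a gene. A gene was tested with lmFit and eBayes, 1 coefficient per time over all 4 arrays, if at least 1 RNA group was well above background on each of its arrays. Signals per channel were Aquantile-normalised. Of 41174 probes, 22951 were named by accession, 6659 by symbol, 3109 by an older symbol and 8455 kept the file's name. Fits were tested on simulated data. All arrays shared 1 slide and scan, so no batch was tested, and their number limits precision. Named genes were all members, receptors and other CXC ligands, and the 2 members of each further list with the smallest p at 24 h; Cpm, the other genes called on short lists and motif stretches were added after values were seen. Members and lists were chosen with earlier results of these data known. Sequences come from the RefSeq table (GRCm38.p6), which matched 8 of 10 members.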

Additional observations from a re-analysis of the deposited data

Results flagged for a closer look

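The ratio of PMCAO over sham differed between 24 h and 6 h by a test of the difference itself for 3 chemokines. The log2 difference was 2.69 for Cxcl1, 2.64 for Cxcl3 and 2.31 for Cxcl10. The receptor gene Cxcr2 (1.19) and the platelet ligand gene Ppbp (1.76) also differed between the times. So did the inducers Il1b (2.38) and Il6 (2.62), and the proteases Mmp8 (2.01) and Mmp9 (0.86). Among markers of other cell types the difference was 3.22 for S100a9, 3.35 for S100a8, 3.87 for Chil3, 2.08 for Arg1, 0.97 for Dcn and -0.92 for Siglech. In sham alone S100a8 was itself lower at 24 h than at 6 h, at -1.15 ± 0.23 (limma separate-channel adjusted p = 0.035). S100a9 was at -0.70 ± 0.20 there (limma separate-channel adjusted p = 0.0923). The 6 h signals of Cxcl3 and Arg1 were not well above background in either group, and those of Cxcr2, Il6 and Mmp8 not in sham at either time, so the sizes of these 5 differences rest partly on background signals. That of Cxcl1 does too, as its 24 h sham signal was well above background on only 1 of 2 arrays.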

How the results depend on the processing

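No member that passed the test changed direction under any alternative. Member counts that moved are given here, higher before lower. At 6 h (1 and 0) they were 2 higher with processed signals, 0 higher with median centring or with detection required in all 8 channels, and 3 and 1 with each time fitted alone. At 24 h (5 and 2) they were 1 and 0 with median centring, and 2 higher with detection in all channels, which removes Cxcl1, Cxcl2 and Cxcl3 from the test by construction. For the difference (3 and 0) they were 1 higher with processed signals, the series table or detection in all channels, 0 higher with median centring, and 4 higher with the mean of a gene's probes, where Cxcl16 also passed. Where a cause is not given it was not tested. Leaving out 1 array gave 1 to 3 higher and 0 to 1 lower at 6 h, 5 to 5 and 2 to 3 at 24 h, and 3 to 5 and 0 to 2 for the difference; without either 24 h array Cxcl2, Cxcl10 and Cxcl12 also passed at 6 h, and Cxcl2, Cxcl16 and Cx3cl1 for the difference. Without 24 h sample 1, Cxcl14 also passed at 24 h and Cxcl12 for the difference, and without 6 h sample 2 Cxcl2 did. One array and 1 dye orientation then remain at that time, and that array is assumed to vary like the 2 arrays of the other time, which give the spread. Without either 24 h array, calls over all genes also rose in each of these comparisons, so the added members are not particular to the chemokines.

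With a replicate block for sample number (equivalently, for dye orientation) the counts were 3 higher and 1 lower at 6 h, 5 and 3 at 24 h, and 5 and 2 for the difference. Those added were Cxcl2, Cxcl10 and Cxcl12 at 6 h, Cxcl14 at 24 h, and Cxcl2, Cxcl12, Cxcl16 and Cx3cl1 for the difference. Only 2 pairs share a number, which is not a shared animal in the labels, and their deviations from the time means correlated at 0.72. Over all genes the block gave 3913 higher and 3683 lower at 24 h, against 1499 and 864 without it, and median centring gave 13 and 0. At 6 h the block gave 1131 and 571 genes, against 156 and 7 without it. For the difference it gave 1685 and 1530, against 246 and 57. Testing each probe, an alternative chosen after seeing the data, left Cxcl12 called at 24 h on both probes, Cxcl16 on both and Cx3cl1 on 1. Signal over background limits Cxcl1 at 24 h, and Cxcl2, Cxcl3, Cxcl9 and Cxcr2, which have bounds or no fold.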
